A study of Mus musculus with 188 samples.

Results

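DNA replication and S phase genes were followed in single basal keratinocytes of mouse tail skin. The 33 genes were chosen by name, with earlier results of these data known, and all 33 were found among the 49585 gene rows. They comprise 8 genes that license replication origins (Mcm2, Mcm3, Mcm4, Mcm5, Mcm6, Mcm7, Cdc6 and Cdt1), the licensing inhibitor Gmnn, the helicase activators Cdc45 and Gins2, and 11 genes of DNA and nucleotide synthesis (Pcna, Rfc2, Rpa2, Prim1, Pold1, Pole, Fen1, Lig1, Rrm1, Rrm2 and Tyms). Chromatin copying is represented by Uhrf1, Dnmt1, Hells and Chaf1b, fork protection, repair and histone mRNA handling by Tipin, Dtl, Ung and Slbp, and the switch from G1 to S phase by E2f1, Ccne1 and Ccne2. The cells came from Lrig1-CreERT2/RosaYFP mice at postnatal day 20. They were basal cells of the interfollicular epidermis (IFE), sorted as Cd34-/Itga6+/YFP-, so cells in which the Lrig1-driven reporter was on were left out. The cells form 1 group, 94 on each of 2 plates, with no treatment arm and no animal named, and each cell became a Smart-seq2 library. No p-value was therefore computed, and spreads and correlations are over cells, which are not replicates.

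Before S phase, a cell loads the Mcm2 to Mcm7 helicase onto replication origins with the help of Cdc6 and Cdt1, a step called licensing, and geminin, the product of Gmnn, blocks further loading once replication has begun. Cdc45 and the GINS complex then switch the helicase on, and polymerases, the sliding clamp PCNA and the enzymes that make deoxynucleotides copy the DNA. Transcription of many of these genes is driven by E2F factors at the entry into S phase. In the epidermis, basal keratinocytes divide, and cells that leave the cell cycle to differentiate switch on keratin 10 (Krt10).

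The promoters of the genes were read on both strands for 4 sequences of the kind that E2F factors bind, TTTGGCGC, TTTCCCGC, TTTGCCGC and TTTCGCGC. RefSeq promoter windows on GRCm38.p6, from 250 bases before to 50 after each start, were given for 26 of the 33 genes, and 12 of these 26 (46.2%) held a match. Genes with several starts have several windows, and any gene was counted when at least 1 of its windows matched. Mcm7, Lig1, Dnmt1 and Uhrf1 also had windows without a match. Among all 27025 genes with a window the share was 2.60%, and among the 8854 genes whose GC content lay within the middle range of the 26 it was 4.16%. Of the licensing genes 6 of 7 held a match, against 2 of 9 synthesis genes. The 2 promoters below belong to Mcm5 and Mcm6, the members counted as variable beyond the spike-ins, and were chosen for printing after those values were seen. They are written on the strand of the gene, lie upstream of the start and hold the matches in capitals, with overlapping matches of both strands run together. Mcm5 is read from chr8:75109329-75109508 on the plus strand and Mcm6 from chr1:128359706-128359885 on the minus strand.
Mcm5: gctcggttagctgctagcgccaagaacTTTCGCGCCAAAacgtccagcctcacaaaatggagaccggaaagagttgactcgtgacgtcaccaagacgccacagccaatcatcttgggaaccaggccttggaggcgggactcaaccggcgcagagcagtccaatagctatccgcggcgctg
Mcm6: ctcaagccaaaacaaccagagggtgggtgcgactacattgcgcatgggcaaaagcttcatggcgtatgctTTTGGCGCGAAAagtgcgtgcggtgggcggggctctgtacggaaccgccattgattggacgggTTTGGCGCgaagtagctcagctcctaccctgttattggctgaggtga

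Both printed stretches end upstream of the gene's start, and in Mcm6 the match nearest to it began 47 bases upstream. Single sites of other genes are shown to compare their flanks, each turned so that the match reads from TTT and with the match in capitals. Dtl, whose product targets Cdt1 for destruction, had its match 8 bases upstream of the start, and Hells, a chromatin remodeller, 62 bases upstream. In Cdt1 the match began 32 bases downstream of the start, and in Cdc6 it lay upstream.
Dtl: gacgtcagTTTGGCGCggagtttg
Hells: caccgggtTTTCCCGCgaaagaga
Cdt1: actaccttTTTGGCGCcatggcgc
Cdc6: ccaggcgaTTTCCCGCtctccacc

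No match was present in the windows of 14 genes, Pcna, Mcm2 and E2f1 among them, which says only that these letters are not in these windows. A match is a description of the sequence and not a measured binding site.

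A cell held between 79868 and 1093805 counts over genes, with a median of 369991. Of the counts in a cell, a median of 10.0% was expected to be stray, that is, reads of other wells, with a range of 3.20% to 54.2%, and over all cells 9.15% of the counts of the 33 genes were expected to be stray. A gene is called above background in a cell when its count was over 3 times the expected stray count and at least 3 reads above it. The form of stray-read estimate used was chosen from 16 forms after results were seen and gave the lowest background of them (the others gave a median of up to 44.1%), so counts of cells above background are upper values. The basal keratinocyte list of 13 genes summed to a median of 68608 CPM (counts scaled to a total of 1000000 in each cell), while markers of other cells were lower. Of their defining genes, Cd3e, Cd3d, Trac and Ptprc of T cells, Cd207 of Langerhans cells, Krt20, Atoh1 and Isl1 of Merkel cells, Lum and Pdgfra of fibroblasts, Cdh5, Emcn and Vwf of endothelial cells and Cd34 of bulge cells had no read in any cell. Other genes of these lists were read: in single cells the summed level reached 602 CPM for the melanocyte list, 553 for fibroblasts, 383 for Langerhans cells, 302 for bulge and follicle cells, 220 for endothelial cells, 3.72 for Merkel cells and 1.18 for T cells, with medians between 0 and 3.47 CPM. The part of these cells in the results was not tested.

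Each Mcm subunit gene was at 10 CPM or more in most cells, but at very unequal levels. Mcm6, a helicase subunit (chromosome 1, 128331590 to 128359664, minus strand), ran from 3.34 to 995 CPM with a median of 73.7 CPM. Mcm5 (chromosome 8, 75109569 to 75128439, plus strand) ran from 0 to 947 CPM with a median of 19.6 CPM, and its mean of 120.3 ± 192.1 CPM (SD over the cells) lay far above the median. The same gap between mean and median held for Mcm2 (100.6 ± 146.002 CPM, median 24.3), Mcm3 (96.7 ± 144.8 CPM, median 29.8), Mcm4 (132.2 ± 156.7 CPM, median 59.4) and Mcm7 (64.35 ± 90.2 CPM, median 22.5). At the limit of 10 CPM, Mcm6 was detected in 89.9% of cells (exact 95% interval 84.7% to 93.8%) and Mcm7 in 63.3% (55.98% to 70.2%). Above background, the shares were 53.7% of cells for Mcm4, 48.9% for Mcm7, 47.9% for Mcm6, 47.3% for Mcm3, 39.4% for Mcm2 and 37.8% for Mcm5. These intervals cover counting error only: they take the cells as independent draws, while the cells are not replicates and no animal is named. Reads without molecular identifiers are also not independent molecules.

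The loading factors were detected less widely than the helicase subunits. Cdt1 had a median of 9.48 CPM and a highest value of 769 CPM, and it was above background in 63 cells. Cdc6 had a median of 0 and a highest value of 236 CPM, and only 17 cells were above background. Gmnn, which inhibits Cdt1, was above background in 70 cells, with a median of 12.9 CPM and a highest value of 529 CPM. Cdc45 was above background in 31 cells and Gins2 in 57, but 67.3% of the exon length of Gins2 overlaps Gse1 on the other strand, and since no source says that reads were counted by strand, its level is uncertain.

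Among the synthesis genes, Pcna, the sliding clamp, was the most widely detected member of the whole set. It ran from 0 to 981 CPM with a median of 110 CPM, was at 10 CPM or more in 96.3% of cells (92.5% to 98.5%) and above background in 72.3% (65.4% to 78.6%). Prim1, the primase subunit, had a mean of 89.97 ± 122.6 CPM, Rpa2, which coats single-stranded DNA, 85.7 ± 135.5 CPM, Rrm1, the large subunit of ribonucleotide reductase, 79.8 ± 111.5 CPM, and Lig1, the ligase that joins lagging-strand fragments, 77.97 ± 129.2 CPM. Rrm2, the small subunit of ribonucleotide reductase, was concentrated in fewer cells: its median was 6.58 CPM, its highest value 1336 CPM, and 36 cells were above background. Tyms, which makes thymidylate, was above background in 84 cells. The polymerase genes Pold1 and Pole were above background in 35 and 45 cells. Fen1, the flap nuclease, had a mean of 4.82 ± 12.05 CPM, but 84.2% of its exon length overlaps other genes (Tmem258 and Gm10143), so its level is uncertain, as are those of Ccne2 (17.4% overlap), Rfc2 (15.1%) and Mcm7 (12.6%).

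Of the remaining genes, Dnmt1, the maintenance DNA methyltransferase, and Tipin, a fork protection factor, were above background in 98 and 99 cells, with means of 122.1 ± 145.05 and 120.5 ± 139.5 CPM. Hells (74 cells), Chaf1b, a histone chaperone subunit (59 cells), and Uhrf1, which directs Dnmt1 to newly copied DNA (57 cells), were detected in fewer. Slbp, which binds histone mRNA, was above background in 76 cells, and the uracil glycosylase Ung in 64. The switch genes were the scarcest group: E2f1 was above background in 42 cells, Ccne2 in 32 and Ccne1 in 15, and the median of both cyclin E genes was 0. Relative to exon length, mean levels were highest for Pcna (64.8 CPM per kb), Tipin (64.5), Mcm6 (39.2) and Gmnn (38.2) and lowest for Cdc6 (1.35), Dtl (1.65) and Fen1 (1.99). At 10 CPM, 18 of the 33 genes were detected in at least 50% of cells, and above background 4 were (Pcna, Mcm4, Tipin and Dnmt1).

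**Figure D1:**
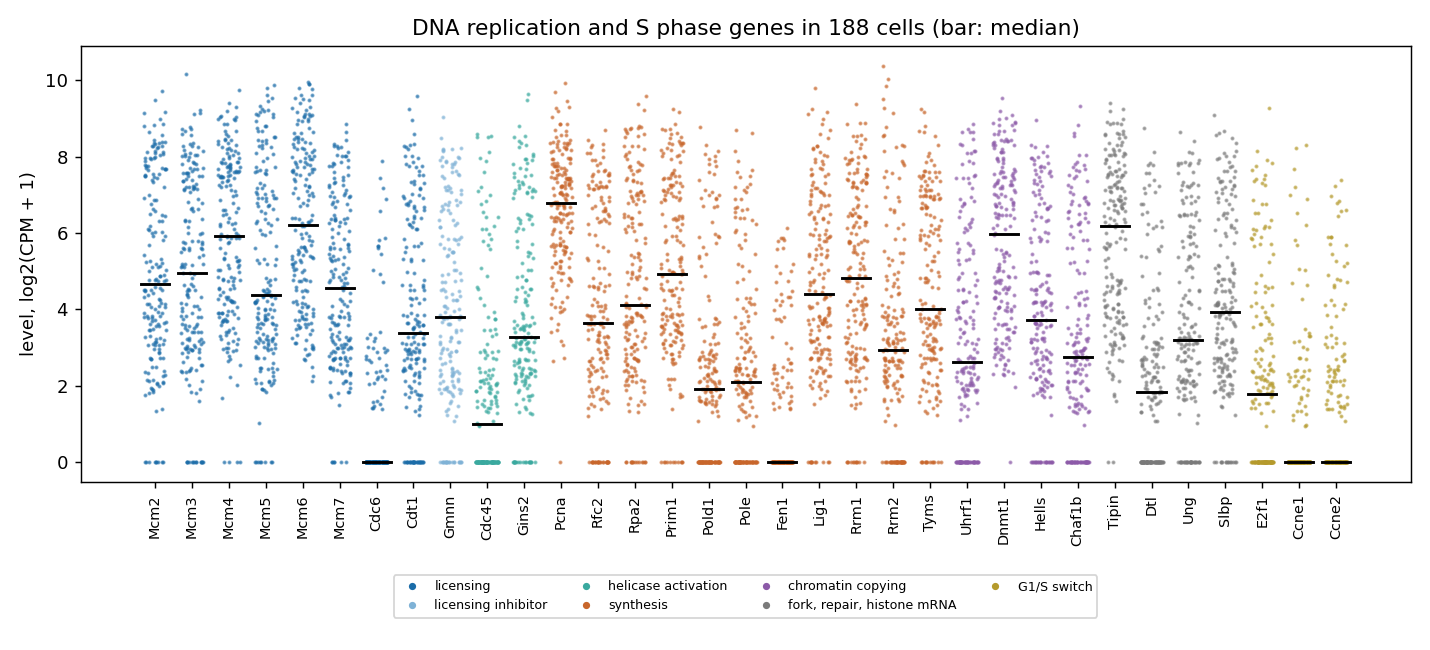
Level of each of the 33 genes in every cell as log2(CPM + 1), with 1 point per cell, colours for the gene groups and a black bar for the median. Most genes spread from 0 or a few CPM to far higher levels, such as 947 CPM for Mcm5, and the medians of Cdc6, Fen1, Ccne1 and Ccne2 are 0.

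Variation between cells beyond technical noise was read against the ERCC spike-ins, whose squared coefficient of variation (CV) sets a trend with the mean. A gene was counted as variable with a mean of at least 50 CPM and a squared CV of at least 2 times the trend on both plates. Of the 33 genes, 17 reached that mean, and 2 of them were variable, Mcm5 at 2.57 times and Mcm6 at 2.39 times the trend on the plate with the lower ratio, against 3.76% of all 3377 genes at that mean. Mcm2, at 1.90 times the trend, and Gins2, at 1.94 times, lay just under the limit. Rrm2, whose mean was under 50 CPM on plate 2, stood at 4.30 times the trend. The weighting of the spike-in trend was changed after its first result was seen: with weights from the observed values, as first run, 15 of the 17 genes and 27.95% of all genes counted as variable.

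The licensing genes and the synthesis genes were high in the same cells. Summed over the 8 licensing genes, a cell held 29.2 to 3487 CPM with a median of 405 CPM, and summed over the 11 synthesis genes 55.6 to 4202 CPM with a median of 478 CPM. Spearman's rho between the sums was 0.69 across all cells, 0.74 on plate 1 and 0.62 on plate 2, and it was 0.69 without the 2 cells farthest from the median of log2 Krt10. Cells share stray reads, in the fit used also across the plates, so the plates are not independent of each other. Each sum also shares its cell's depth, with which licensing had a rho of 0.16 and synthesis of 0.14. The ratio of licensing to synthesis CPM had a median of 0.97 and ranged from 0.0533 to 10.2, so the sums were unequal in single cells in either direction.

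**Figure D2:**
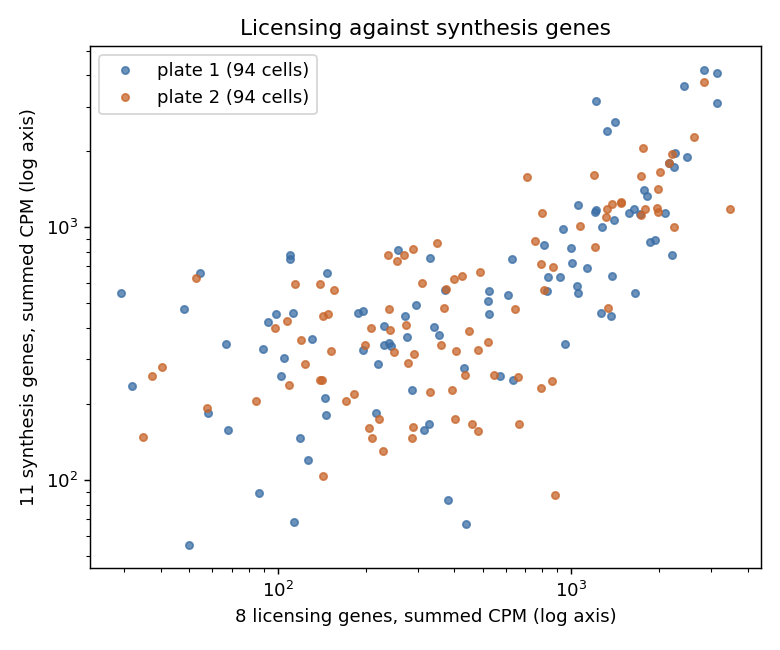
Summed CPM of the 8 licensing genes against that of the 11 synthesis genes, both on log axes, with 1 point per cell coloured by plate. The points of both plates run from low in both sums to high in both, and rho is 0.74 for plate 1 and 0.62 for plate 2.

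Pairs of single genes showed the same pattern at lower strength. Over the 528 pairs of the 33 genes the mean rho was 0.29, beside a mean of 0.01 over all pairs of the 9344 genes that reached 10 CPM in 10% of cells or more. Of the 528 pairs, 527 were above 0, but the share of all pairs above 0 is not given here, so that count does not set the 33 genes apart. The mean was 0.41 within the licensing genes, 0.46 within Mcm2 to Mcm7, 0.23 within the synthesis genes and 0.30 between the licensing and synthesis genes. Mcm5 and Mcm6 were the closest pair (rho 0.59; plates 0.61 and 0.56), and 57 cells held both above background. Mcm5 with Uhrf1 (0.55) and Gmnn with Uhrf1 (0.55) followed among pairs that cross groups. With the summed other members, rho ran from 0.22 for Rfc2 to 0.67 for Mcm5.

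The number of helicase subunits detected per cell spanned the whole range. Of the 6 subunit genes, 0 or 1 was above background in 73 cells and 5 or 6 in 55 cells, while 4 were above background in 12 cells and 3 in 17. All 6 were above background in 34 cells (18.1%, 12.9% to 24.3%), 19 on plate 1 and 15 on plate 2, and none in 26 cells (13.8%, 9.24% to 19.6%). Depth moved with this count: the median was 249964 counts in cells with no subunit and 536400 in cells with all 6, and its part in the count was not tested. The form of detection set these numbers: at 10 CPM, 70 cells held all 6 subunits and 2 held none, and under the 16 forms of stray-read estimate 38.8% to 65.4% of cells held 0 or 1 subunit above background and 13.3% to 29.3% held 5 or 6.

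More of the other 27 genes were detected in cells with more helicase subunits, and the limits of 0 or 1 and of 5 or 6 subunits were set after seeing the data. The median number of these 27 above background was 4 in cells with no Mcm subunit and 19.5 in cells with all 6. Both counts use the same limit in the same cells, whose median depth was 249964 and 536400 counts. The share over all genes is not given here, so this count does not set the 27 genes apart, and the part of depth was not tested. Hells had a mean of 126.05 ± 105.4 CPM in the 55 cells with 5 or 6 subunits and 11.6 ± 19.7 CPM in the 73 cells with 0 or 1. Ung had 103.9 ± 97.7 CPM against 8.72 ± 19.5 CPM, Uhrf1 123.4 ± 134.97 CPM against 10.3 ± 29.8 CPM, and Lig1 179.8 ± 175.4 CPM against 26.1 ± 34.02 CPM. After every cell was thinned to 75000 counts, Hells had a read in 90.9% of the first and 47.9% of the second cells, and Ung in 80% and 35.6%. The gap was smaller for Rrm1 (83.6% and 68.5%) and Pcna (98.2% and 94.5%). Rrm1 had the lowest ratio of mean levels of the 27 genes, with 133.05 ± 145.8 CPM against 65.6 ± 90.1 CPM. It was above background in 39.7% of the cells with 0 or 1 subunit. Pcna was above background in 54.8% of these cells (42.7% to 66.5%), where Dtl reached 1.37% and Cdc6 1.37%.

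**Figure D3:**
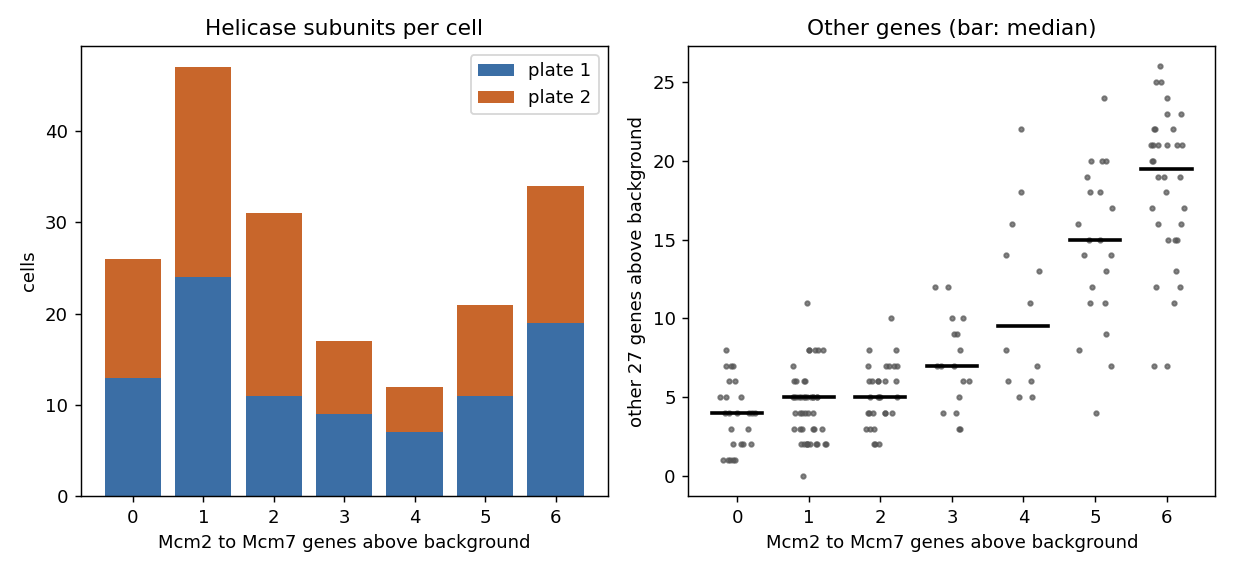
Left, number of cells by how many of the Mcm2 to Mcm7 genes were above background, stacked by plate. Right, how many of the other 27 genes were above background in the same cells, with 1 point per cell and a bar for the median, which goes from 4 at 0 subunits to 19.5 at 6.

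Genes of G2 and M phase, summed over a list of 22 genes, were related to the replication genes from cell to cell. The sum of the 33 genes had a rho of 0.43 with the G2/M sum (0.39 and 0.48 by plate), licensing 0.34 and synthesis 0.44. By gene, rho with the G2/M sum was above 0 for all 33 and ran from 0.09 for Rfc2 to 0.48 for Uhrf1 and 0.42 for Gmnn. The share of all genes above 0 is not given here, so this count does not set the 33 genes apart. In 29 cells, at least 25% of the G2/M list was above background. Mean levels in these 29 cells against the remaining cells were 223 ± 361 against 31.1 ± 80.7 CPM for Rrm2, 124.98 ± 128.8 against 31.9 ± 77.8 CPM for Uhrf1 and 129.6 ± 125.1 against 42.6 ± 71.01 CPM for Gmnn. For Mcm3 (117.8 ± 131.7 against 92.8 ± 147.1 CPM) and Prim1 (108.4 ± 126.8 against 86.6 ± 121.96 CPM) the means lay closer together. The spreads over cells overlap for each of these genes, Rrm2, Uhrf1 and Gmnn included.

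Cells were also grouped by having at least 25% of the 33 genes and of the G2/M list above background. Both lists reached that share in 18 cells, the replication genes alone in 75, the G2/M list alone in 11 and neither in 84. The median depth of these cells was 413530, 477861, 260136 and 328449 counts, and 38 cells lay between 20% and 30% of the replication genes, so the classes are ranges and not cell types. Defined at 10 CPM in place of above background, both lists reached the share in 50 cells.

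Krt10, the keratin of differentiating cells, ran from 185.4 to 45289 CPM with a median of 882 CPM, and the replication genes were lower in cells with more of it. Krt10 was above background in only 31.4% of cells, so in the others its CPM may be stray in large part, and the part of this in the values below was not tested. A gene was called falling with Krt10 when its rho was at most -0.3 on both plates. Of the 33 genes, 31 passed the filter of 10 CPM in at least 10% of cells (Cdc6 and Ccne1 did not), and 1 of the 31, Mcm5, fell: its rho was -0.38 over all cells, and -0.38 and -0.40 by plate. Over all 9344 genes, 0.471% fell and 0.631% rose, and a single member is too few to set apart from that background. The call for Mcm5 was lost after every cell was thinned to 75000 counts (rho -0.28; plates -0.26 and -0.33) and with scaling to the spike-ins (-0.15). All 31 had a rho below 0 over all cells, and 29 had one below 0 on both plates, beside 31.7% of all genes, and their median rho was -0.22, against -0.0046 for all genes.

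By role, the median rho was -0.30 over the 7 licensing genes that passed the filter and -0.16 over the 11 synthesis genes. The order held on plate 2 (-0.40 and -0.24) but not on plate 1 (-0.15 and -0.16), and the summed levels given further on are in the other order. The values of rho were -0.32 for Mcm3, -0.296 for Mcm2 and -0.297 for Cdt1 (both just short of -0.3), -0.22 for Mcm4, Mcm6 and Mcm7, and -0.20 for Gmnn. Of the synthesis genes, Rrm1 (-0.33) and Lig1 (-0.31) were the lowest and Rfc2 (-0.06), Fen1 (-0.09) and Rrm2 (-0.09) the nearest to 0. Over all cells 4 of the 31 genes reached -0.3 (Mcm5, Rrm1, Mcm3 and Lig1), beside 0.974% of all genes. Pcna had a rho of -0.23, Dnmt1 of -0.25 and E2f1 of -0.22.

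The plates differed. On plate 2, 14 of the 31 genes were at or below -0.3, beside 1.96% of all genes, and on plate 1 only Mcm5 was, beside 1.05%. Of the 31 genes, 27 had the lower rho on plate 2, as did 47.5% of all genes. Gmnn was at 0.04 on plate 1 and -0.46 on plate 2, and Rfc2 at 0.08 and -0.21. The difference between plates was not tested, since a plate is 1 set of cells.

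**Figure D4:**
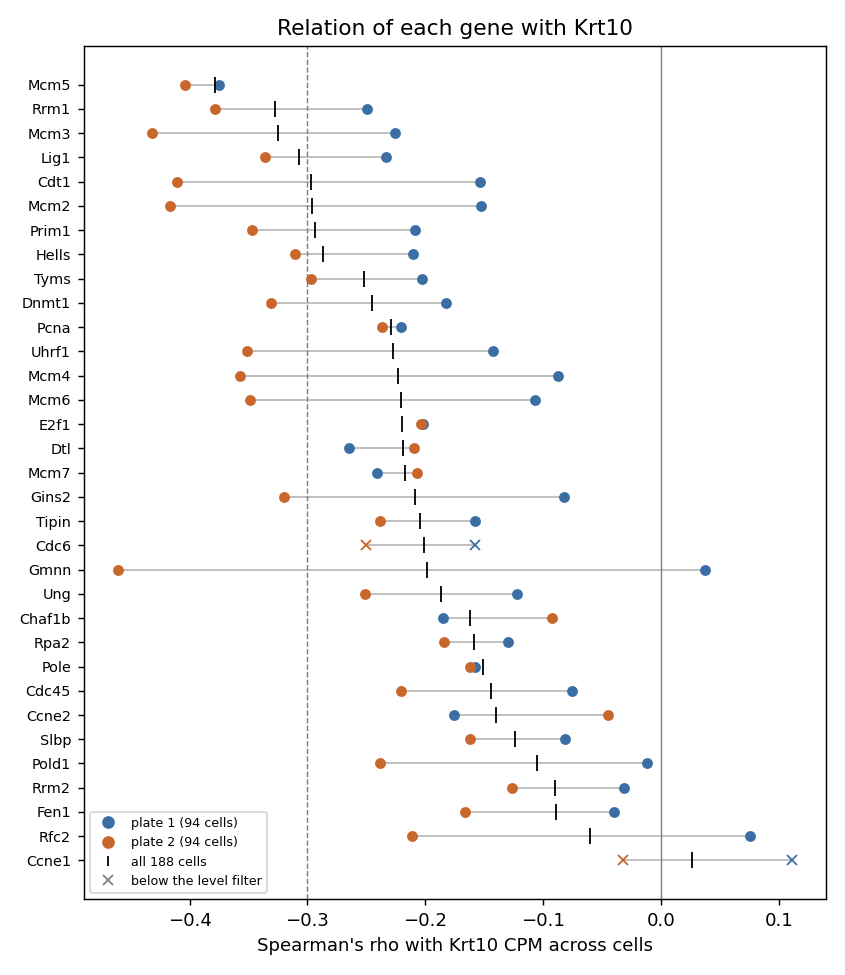
Spearman's rho of each gene with Krt10 CPM, on plate 1, on plate 2 and over all cells, ordered by the value over all cells. The dashed line marks -0.3, and Mcm5 is the gene with both plates beyond it. Crosses mark Cdc6 and Ccne1, which did not pass the level filter.

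As sums, the 33 genes had a rho of -0.42 with Krt10 (-0.30 and -0.52 by plate), licensing -0.36 (-0.24 and -0.49) and synthesis -0.43 (-0.29 and -0.52). The ratio of licensing to synthesis had a rho of -0.07 with Krt10. With the summed early differentiation list of 12 genes in place of Krt10, licensing was at -0.47 and synthesis at -0.47.

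Cells were split into 4 quartiles by Krt10 within each plate, which are ranges and not cell types. The licensing sum had a median of 884 CPM in the lowest quartile, 524 and 501 CPM in the middle ones and 223 CPM in the highest, and the synthesis sum 805, 549, 537 and 323 CPM. Median depth was 519404, 336483, 263163 and 389561 counts in the same order, the summed basal list had medians of 75160 CPM in the lowest and 31582 CPM in the highest quartile, and their part in the result was not tested. The steps were not even on each plate: on plate 1 the licensing median was 977, 317, 983 and 258 CPM, so that the third quartile was as high as the lowest, and on plate 2 it was 732, 793, 373 and 182.2 CPM. Mcm5 had a mean of 199 ± 221 CPM in the 48 cells of the lowest quartile and 20.7 ± 33.7 CPM in the 46 of the highest. Uhrf1 went from 65.1 ± 107.2 to 4.61 ± 8.37 CPM, Cdt1 from 81.4 ± 123.7 to 11.1 ± 22.2 CPM and Pcna from 181.5 ± 181.5 to 92.5 ± 65.9 CPM. These spreads overlap in every case.

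**Figure D5:**
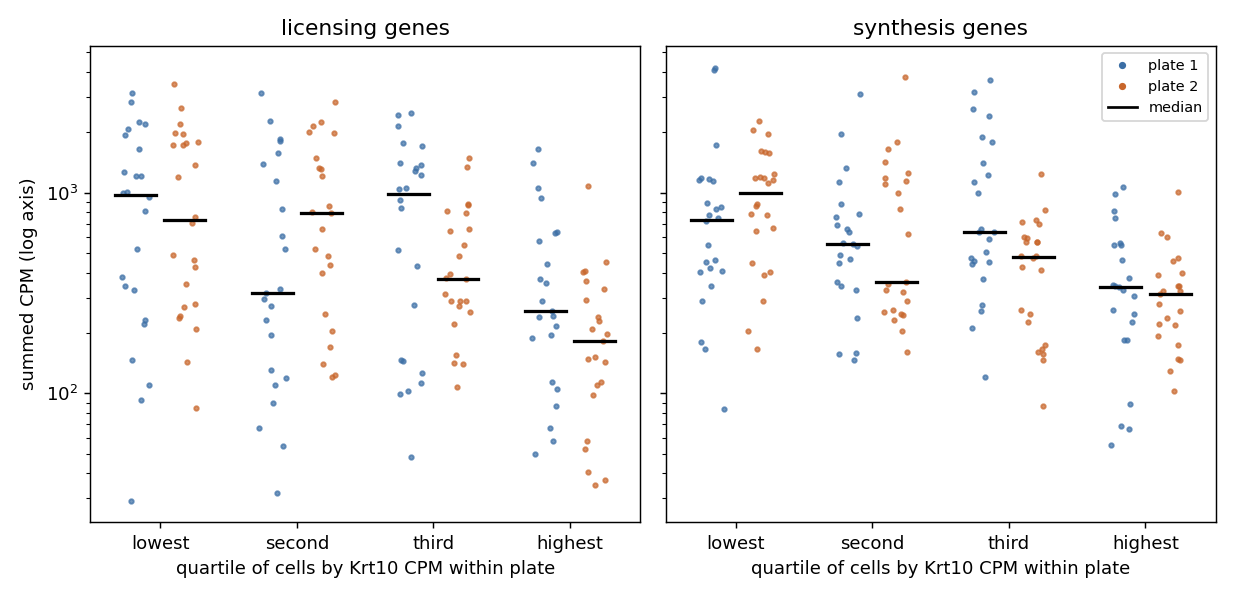
Summed CPM (log axis) of the licensing genes and of the synthesis genes in each quartile of the cells by Krt10, with 1 point per cell coloured by plate and a bar for the median. The highest quartile has the lowest median on both plates, and the middle quartiles are uneven between plates.

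Over much of its range Krt10 CPM could not be told from stray reads. Krt10 was above background in 59 cells (31.4%), a split made after seeing the data, with a median member sum of 852 CPM against 1486 CPM in the remaining cells. In those remaining cells Krt10 ran from 185.4 to 4324 CPM. Within the 59 cells the rho of the 33 genes with Krt10 was -0.47 (-0.45 and -0.44 by plate), and 4 of 29 genes tested there fell (E2f1, Hells, Mcm2 and Mcm5), beside 1.55% of all genes in these cells. Within the remaining cells it was -0.21, with -0.06 on plate 1 and -0.37 on plate 2, and no gene of the 33 fell, beside 0.0106% of all genes. In those cells Krt10 CPM itself had a rho of -0.64 with depth, so lower Krt10 values and deeper libraries went together, and the part of depth was not tested.

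When counts were set against the ERCC total in place of the gene total, the rho of the 33 genes with Krt10 was -0.04 (0.06 and -0.16 by plate), no gene fell, and the median rho of all genes moved from -0.0046 to 0.10. With this scaling 20 of the 31 genes had a rho below 0, where all 31 did in CPM, and 30 of the 31 lay below the median of all genes. Their own median was -0.04.

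A wider list of 58 replication genes outside the 33 was read in the same way. Of 53 that passed the filter, none fell with Krt10 and 1 rose, E2f2, a member of the E2F family, with a rho of 0.30 (0.32 and 0.34 by plate). Over all genes 0.471% fell and 0.631% rose, and a single gene is too few to set apart from that background. The call for E2f2 was lost with scran size factors (0.30; plate 1 just under the limit), with stray reads subtracted (0.24), without the 2 cells farthest from the median of log2 Krt10 (0.29) and with the summed early differentiation list (0.17), and within the 59 cells with Krt10 above background its rho was 0.08. E2f2 ran from 0 to 1128 CPM with a median of 2.96 CPM, and its mean was 9.66 ± 26.9 CPM in the lowest and 76.9 ± 179.4 CPM in the highest quartile of Krt10. Over the 53 genes the median rho was -0.11. The most abundant were the histone chaperone Nasp (226.5 ± 185.8 CPM, rho -0.24), Pole3 (173.1 ± 145.9 CPM, rho -0.14), Mcmbp (150.2 ± 142.6 CPM, rho -0.01), Rfc3 (129.2 ± 164.6 CPM, rho -0.27) and Rnaseh2a (108.8 ± 125.3 CPM, rho -0.17).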

How the data were processed

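Single basal cells of 1 group (94 on each of 2 plates) were measured by Smart-seq2. The authors deposited raw whole-number read counts per gene, with no normalization. Cutadapt 1.13, STAR 2.5.2b and HTSeq 0.6.0 are named in the submitters' processing notes, without order, and no annotation release is given in the sources used here. CPM were computed over the gene total without spike-ins. All cells were kept, no column was left unused (0), and no doublet caller was run, since cells were sorted 1 per well. Genes were described with Spearman's rho (scipy 1.17.1, Python 3.11.15), not tested, because no animal is named. Positions come from GENCODE M21 (GRCm38). Stray reads were fitted by non-negative least squares over 44 genes high in few wells, giving 30.5 stray reads per 10000 source reads of wells in the same lettered row, 15.1 in the same column and 0.817 elsewhere. The form of this fit run first selected no gene. Of 16 forms then compared, the one used was taken with its results known, because its rates lay close to those of an earlier analysis of these data, and it gives the lowest background. The weighting of the spike-in trend was likewise changed after its first result differed from that analysis. Size factors for an alternative came from scran 1.30.0 (R 4.3.3). The scan, the stray rates and the trend were run on simulated data as a check of the code. The simulated spike-in trend levelled off at high means and the fitted trend here did not, so this check does not settle the choice of weighting. The named genes were all 33 members, the 5 most abundant and any called of 58 other replication genes, 15 genes closest to the member score, and Krt10, Krt14, Krt1, Mki67, Top2a, Ccnb1 and Cdkn1a. Members and lists were chosen with earlier results of these data known.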

Additional observations from a re-analysis of the deposited data

How the results depend on the processing

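The licensing-synthesis relation moved by less than the spread between plates under every alternative run (scran size factors, CPM without keratins, ERCC scaling, stray reads subtracted, thinning, z scores, and leaving out cells by Krt10, gene number, depth or stray share). Against the ERCC total, rho with Krt10 was -0.0421 for the 33 genes summed, -0.0538 for licensing and -0.0677 for synthesis, rho with G2/M genes was 0.541, and 0% of genes fell, 2.77% rose and 0 members fell. The other settings kept rho with Krt10 within the spread of the plates, except for -0.209 for the 33 genes in cells with Krt10 not above background. Of all genes tested, 0.750% fell without the 25% of cells with lowest depth (2 members) and 0.803% with the summed early differentiation list (6 members). At a rho of 0.2, 1.96% fell and 1.82% rose (11 members fell). In cells with Krt10 above background 1.55% fell and 1.705% rose (4 members fell), and in the remaining cells 0.0106% fell and 0.128% rose (0 members). With no filter on low values 0.214% fell and 0.286% rose, where 20604 genes were tested in place of 9344. After thinning 0 members fell, and Mcm5 was at -0.28. Members detected in at least 50% of cells numbered 29 at 1 read and 4 above background, against 18 at 10 CPM. Cells with 25% of both lists were 12.8% after subtraction, 38.8% after thinning, 17.7% without the 25% of cells with lowest depth and 9.57% above background, against 26.6%. At 1.5 times the spike-in trend 326 genes (8 members) were variable, and with the trend weighted by the observed values 944 (15 members). Stray rates fitted with 10% of the highest count left 14.9%, 13.8% or 13.3% of cells with 5 or 6 Mcm subunits, 65.4% with 0 or 1, and 18.1% with Krt10 above background, against 29.3%, 38.8% and 31.4%. The cause of these changes was not tested. The alternatives on Krt10 above background, stray share, stray form and trend weighting were chosen after seeing the data. No paired analysis was possible because all cells form 1 group. Cdc6, Ccne1 and Fen1 had no read in most cells, and their rho with depth was 0.05, 0.03 and 0.17.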

Other observations

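Genes outside the lists that followed the 33 replication genes most closely were ranked by rho with the mean z score of the 31 genes that passed the level filter, taking the plate nearer to 0, among 9214 candidates. The highest was Tubb5, a beta tubulin (rho 0.60; plates 0.61 and 0.59; mean 614 ± 705 CPM), followed by Slfn9 (0.62; 0.65 and 0.58) and Dtymk, which phosphorylates thymidylate (0.55; 0.57 and 0.52). The kinetochore genes Cenph, Cenps and Cenpk had rho values of 0.54, 0.52 and 0.45, and the remaining genes of the 15 were Tuba1b, Atad2, Smc4, Cbx5, Dnajc9, Tceal9, Paqr4, Cks1b and Rnf227, the last at 0.41. At a rho of at least 0.3 on both plates there were 67 such genes. Dtymk (-0.43) and Tubb5 (-0.41) also had the lowest rho with Krt10 among the 15.

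Cdkn1a, which encodes a cyclin-dependent kinase inhibitor, had a mean of 609 ± 542 CPM in the 73 cells with 0 or 1 Mcm subunit above background and 301 ± 390 CPM in the 55 cells with 5 or 6. Krt10 was above background in 41.1% of the first (29.7% to 53.2%) and 20% of the second (10.4% to 32.97%), and Krt14 was above background in 72.6% and 100% of them. Krt14 nevertheless had a read in 100% of the cells of both groups, with medians of 32166 and 35098 CPM. Mki67, a proliferation marker, was above background in 21.9% and 20%, and Ccnb1, of late G2 phase, in 9.59% and 10.9%. Top2a, a topoisomerase of dividing cells, was above background in 27.4% (17.6% to 39.1%) and 43.6% (30.3% to 57.7%), with means of 38.8 ± 80.1 and 151.3 ± 389 CPM. Depth moved with the number of subunits, and its part was not tested.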
